A study of Mus musculus with 2 samples.

Results

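Levels of 6 NRF2 target mRNAs of quinone and sulfiredoxin defence, Nqo1, Srxn1, Osgin1, Pir, Me1 and Abcc1, were compared in single bone marrow cells of Trsp knockout and control mice. Trsp is the gene of the selenocysteine tRNA. The members were taken as listed symbols, all 6 of which were present among the 32285 genes of the count tables, and they had been chosen with results of these same cells in view. Lineage- cKit+ cells from the femora and tibiae of C57BL/6 mice, a fraction of hematopoietic stem cells (HSCs) and early progenitors, were frozen, thawed and profiled by droplet single-cell RNA sequencing. The Trsp knockout library came from Trsp f/f:Mx1-Cre mice and the control library from Trsp f/f mice. Both genotypes carried the floxed Trsp alleles, and both had received 3 doses of 500 µg per mouse of pI-pC, a synthetic double-stranded RNA used to switch on Mx1-Cre. The series record gives the injections as 7 weeks after birth, in ambiguous words, and sampling as 9 weeks after the last of them. Mx1-Cre is driven by an interferon-responsive promoter that is active in blood cells and in other tissues, and the sources used here do not say how many mice went into a library. With 1 library per genotype no difference has a replicate check, no test was made, and every interval is an exact 95% interval that covers counting error only.

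NRF2, encoded by Nfe2l2, is a transcription factor that KEAP1 marks for degradation until oxidants or electrophiles modify KEAP1. NRF2 then pairs with small MAF proteins on antioxidant response elements, from which BACH1 can displace it. Nqo1 encodes the quinone reductase that carries quinones to hydroquinones by transfer of an electron pair. Srxn1 encodes sulfiredoxin, which restores hyperoxidised peroxiredoxins. Osgin1 encodes an oxidative stress induced growth inhibitor, Pir encodes pirin, an iron-binding nuclear protein, Me1 encodes the cytosolic malic enzyme that makes NADPH, and Abcc1 encodes the MRP1 pump that exports glutathione conjugates.

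Promoter windows of the members are given because these mRNAs were higher together in the knockout library and NRF2 binds a known sequence. RefSeq (GRCm38.p6) windows of 250 bases before to 50 bases after the gene start were matched for 5 of the 6 members, all but Abcc1. The core of the antioxidant response element, TGACNNNGC on either strand, was present in 3 of these 5 members, Srxn1, Pir and Me1, in 14.0% of 27025 mouse genes with a window and in 12.4% of 32851 windows of the same length. A shorter sequence, TGACTCA on either strand, is a core of the AP-1 type and was chosen after these windows had been read. It lay inside a match of the antioxidant response element core in Pir and Me1, and outside any such match in Srxn1 and Osgin1. It was present in 4 of the 5, Srxn1, Osgin1, Pir and Me1, in 5.95% of these genes and in 5.20% of these windows. The windows of these 4 members follow 5′ to 3′ on the strand of the gene, with matches of either sequence in capitals, and the Nqo1 window had neither. Me1 had 2 windows, of which the first is shown and the other had neither.
Srxn1, chr2:152105274-152105573, plus strand: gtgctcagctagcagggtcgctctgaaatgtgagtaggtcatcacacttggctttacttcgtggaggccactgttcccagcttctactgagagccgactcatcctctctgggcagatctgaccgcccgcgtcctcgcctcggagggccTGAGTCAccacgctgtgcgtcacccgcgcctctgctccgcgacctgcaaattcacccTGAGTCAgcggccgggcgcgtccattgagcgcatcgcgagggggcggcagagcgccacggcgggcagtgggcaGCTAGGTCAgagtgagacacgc
Osgin1, chr8:119436897-119437196, plus strand: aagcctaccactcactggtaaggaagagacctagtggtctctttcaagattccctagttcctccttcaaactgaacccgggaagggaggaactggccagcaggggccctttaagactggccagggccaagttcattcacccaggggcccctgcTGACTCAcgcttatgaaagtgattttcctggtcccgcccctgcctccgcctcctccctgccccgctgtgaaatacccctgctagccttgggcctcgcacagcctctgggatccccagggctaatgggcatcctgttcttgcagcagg
Pir, chrX:164269181-164269480, plus strand: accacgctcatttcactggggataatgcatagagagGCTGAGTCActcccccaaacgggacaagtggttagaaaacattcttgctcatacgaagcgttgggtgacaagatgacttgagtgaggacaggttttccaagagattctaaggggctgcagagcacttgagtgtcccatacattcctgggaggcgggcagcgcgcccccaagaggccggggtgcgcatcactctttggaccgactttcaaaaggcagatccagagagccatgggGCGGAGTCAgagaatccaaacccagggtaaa
Me1, chr9:86695865-86696164, minus strand: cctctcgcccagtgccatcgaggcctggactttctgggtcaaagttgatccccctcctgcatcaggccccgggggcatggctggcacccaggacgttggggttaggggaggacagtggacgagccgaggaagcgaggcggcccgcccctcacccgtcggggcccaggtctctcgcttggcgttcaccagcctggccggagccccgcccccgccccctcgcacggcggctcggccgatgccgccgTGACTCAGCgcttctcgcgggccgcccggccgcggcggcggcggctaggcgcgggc
The Me1 match began 6 bases before the RefSeq start, and the Osgin1 match 97 bases before it. The RefSeq start of Osgin1 lies 3023 bases inside the GENCODE M21 gene given next, so its window is not the region before the 5′ end of that gene model, whereas the RefSeq start of Nqo1, Srxn1, Pir and the Me1 window shown lies 1, 8, 60 and 39 bases inside theirs. A match describes the letters of the window only, and binding was not measured.

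The members lie apart in the genome (GRCm38, GENCODE M21). Nqo1 (ENSMUSG00000003849) spans chromosome 8, 107388225 to 107403206, on the minus strand, and Osgin1 (ENSMUSG00000074063) spans chromosome 8, 119434124 to 119446256, on the plus strand. Srxn1 (ENSMUSG00000032802) spans chromosome 2, 152105516 to 152111376, and Pir (ENSMUSG00000031379) spans chromosome X, 164269371 to 164373011, both on the plus strand. Me1 (ENSMUSG00000032418) spans chromosome 9, 86581371 to 86695953, on the minus strand, and Abcc1 (ENSMUSG00000023088) spans chromosome 16, 14361558 to 14475737, on the plus strand. Me1 overlaps the antisense gene A330041J22Rik, and the sources used here do not say whether counting used the strand, so reads of that pair cannot be told apart.

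Unique molecular identifiers (UMIs) numbered 152092210 over 11556 barcodes in the knockout library and 184683653 over 14372 barcodes in the control library. Filtering left 6640 knockout cells with a median of 20744 UMIs and 8046 control cells with a median of 20352 UMIs. Cells with fewer than 5000 UMIs made up 17.0% of kept knockout cells and 3.44% of kept control cells. The libraries shared 39 barcodes, of which 10 were among kept cells. Trsp itself was not analysed here, so selenoprotein mRNAs were used to check the genotype labels. Selenoh stood at 29.9 UMIs per 1000000 UMIs (CPM) in knockout cells and 303 CPM in control cells, and Gpx1 at 253 CPM in knockout cells and 1508 CPM in control cells. Cells were assigned to 13 classes by marker genes, which took 64.4% of knockout and 71.8% of control cells, and the 9 classes with at least 100 cells in each library are compared. Each class is called by its markers with the ending "-like", and 23.7% of knockout and 21.2% of control cells lay near a boundary of their assignment. A cluster led by no class markers held 1300 knockout and 168 control cells, or 19.6% of kept knockout and 2.09% of kept control cells, at a median of 1944 UMIs in knockout and 1230 UMIs in control cells. Without it, the log2 ratio over the other kept cells was 3.26 for Nqo1, 2.62 for Srxn1, 2.33 for Osgin1, 3.94 for Pir, 4.03 for Me1 and 0.73 for Abcc1. Free RNA of the suspension can enter droplets. Mpo, a myeloid granule gene, stood at 337 CPM in knockout and 401 CPM in control dendritic cell-like cells, beside 4493 CPM in all knockout and 4957 CPM in all control cells, and free RNA and RNA of the cells' own cannot be told apart there.

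All 6 members were higher in the knockout library when UMIs were summed over all kept cells. This contrast chose the members, so their values are a description. Nqo1 had 1638 UMIs (11.8 CPM) in knockout cells and 208 UMIs (1.25 CPM) in control cells, a 9.48-fold difference (8.20 to 11.0). Srxn1 had 1764 UMIs (12.8 CPM) in knockout cells and 346 UMIs (2.08 CPM) in control cells, 6.14-fold apart (5.47 to 6.91). For both genes the counting interval of the level in the knockout library lay wholly above that in the control library. Osgin1 had 724 UMIs (5.24 CPM) in knockout cells and 174 UMIs (1.05 CPM) in control cells, a ratio of 5.01 (4.24 to 5.94). Pir had 1942 UMIs (14.0 CPM) in knockout cells and 152 UMIs (0.913 CPM) in control cells, a ratio of 15.4 (13 to 18.3). Me1 was the least often counted, with 177 UMIs (1.28 CPM) in knockout cells and 13 UMIs (0.0781 CPM) in control cells, and its ratio of 16.4 has a wide interval (9.34 to 31.4). Abcc1 differed least, with 7592 UMIs (54.9 CPM) in knockout cells and 5520 UMIs (33.2 CPM) in control cells, a ratio of 1.66 (1.60 to 1.71).

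A gene was called higher or lower when it had at least 50 UMIs over both libraries, was at least 1.5-fold apart and had a counting interval on one side of 0 on the log2 scale. All 6 members met this over all kept cells, where 5.18% of 14106 measured genes were higher. By log2 ratio the members ranked 11 (Me1), 12 (Pir), 21 (Nqo1), 28 (Srxn1), 36 (Osgin1) and 499 (Abcc1) from the highest of those genes. The median log2 ratio of all measured genes was 0.12 rather than 0, and relative to that median each log2 ratio is smaller by the same amount, which turned no member's direction.

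The erythroid progenitor-like cells held the highest level of 5 of the 6 members in the knockout library, the exception being Abcc1. This class, led by Car1, Hbb-bs, Hbb-bt and Hba-a1, had 199 knockout and 169 control cells. Nqo1 had 988 UMIs (155 CPM, 145 to 165) in knockout and 65 UMIs (14.4 CPM, 11.1 to 18.4) in control erythroid progenitor-like cells. These 199 knockout cells held 60.3% of all Nqo1 UMIs of the kept knockout cells and 4.61% of all their UMIs, and the control cells of the class held 31.2% of Nqo1 UMIs and 2.70% of all UMIs of the kept control cells. Srxn1 had 455 UMIs (71.4 CPM) in knockout and 26 UMIs (5.78 CPM) in control cells of the class, a log2 ratio of 3.63 (3.06 to 4.26). Pir had 281 UMIs (44.1 CPM) in knockout and 12 UMIs (2.67 CPM) in control cells of the class, a log2 ratio of 4.05 (3.22 to 5.02).

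Osgin1 and Me1 were nearly absent from control erythroid progenitor-like cells at this depth. Osgin1 had 108 UMIs (16.9 CPM) in knockout and 1 UMI (0.222 CPM) in control cells of the class, a ratio of 76.2 whose interval reaches from 13.4 to 3039. Me1 had 37 UMIs (5.80 CPM) in knockout and 0 UMIs in control cells of the class, which is at least 8.71-fold higher against a floor of 3 UMIs over the control cells, while the exact interval of the ratio begins at 6.73. Abcc1 had 371 UMIs (58.2 CPM) in knockout and 113 UMIs (25.1 CPM) in control cells of the class, a log2 ratio of 1.21 (0.91 to 1.53). All 5 members with at least 50 UMIs in this class were called higher, beside 4.07% of 9038 measured genes.

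Cells with high counts were mostly erythroid progenitor-like. At least 5 Nqo1 UMIs were found in 86 kept knockout cells, of which 84 were erythroid progenitor-like, and in 0 control cells. The highest count in a single erythroid progenitor-like cell was 26 Nqo1 UMIs in the knockout library and 3 in the control library. For Srxn1, 36 of the 43 knockout cells with at least 5 UMIs were erythroid progenitor-like, and for Pir 18 of 30 were. Without the erythroid progenitor-like cells, Nqo1 stood at 4.93 CPM in knockout and 0.883 CPM in control cells, a log2 ratio of 2.48 against 3.24 with them, and Srxn1 stood at 9.92 CPM in knockout and 1.98 CPM in control cells (2.33 against 2.62). Without them the log2 ratio was 2.13 for Osgin1, 3.86 for Pir, 3.72 for Me1 and 0.71 for Abcc1.

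Other markers were compared within this class, since it was rebuilt from marker scores. Summed over the 7 erythroid markers, which also defined the class, the level was 2613 CPM in knockout and 2529 CPM in control cells, with no marker at 0. Among these markers Car1 stood at 1672 CPM in knockout and 1403 CPM in control cells. Klf1 stood at 197 CPM in knockout and 215 CPM in control cells, and Gata1 at 105 and 103 CPM. Hbb-bs, a globin gene outside the markers, stood at 1753 CPM in knockout and 805 CPM in control cells, and its bearing on the members' ratios was not tested. The 5 neutrophil progenitor markers summed to 176 CPM in knockout and 1052 CPM in control cells of the class, and the 8 monocyte progenitor markers to 74.3 CPM in knockout and 240 CPM in control cells, and the part of this difference in the members' ratios was not tested. The 7 macrophage markers were near 0, at 0.471 CPM in knockout and 2.89 CPM in control cells of the class, with 4 of the 7 at 0 UMIs in each library, among them C1qc, Cd5l and Spic in both. Median depths were 27236 UMIs in knockout and 20622 UMIs in control cells of the class.

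**Figure D1:**
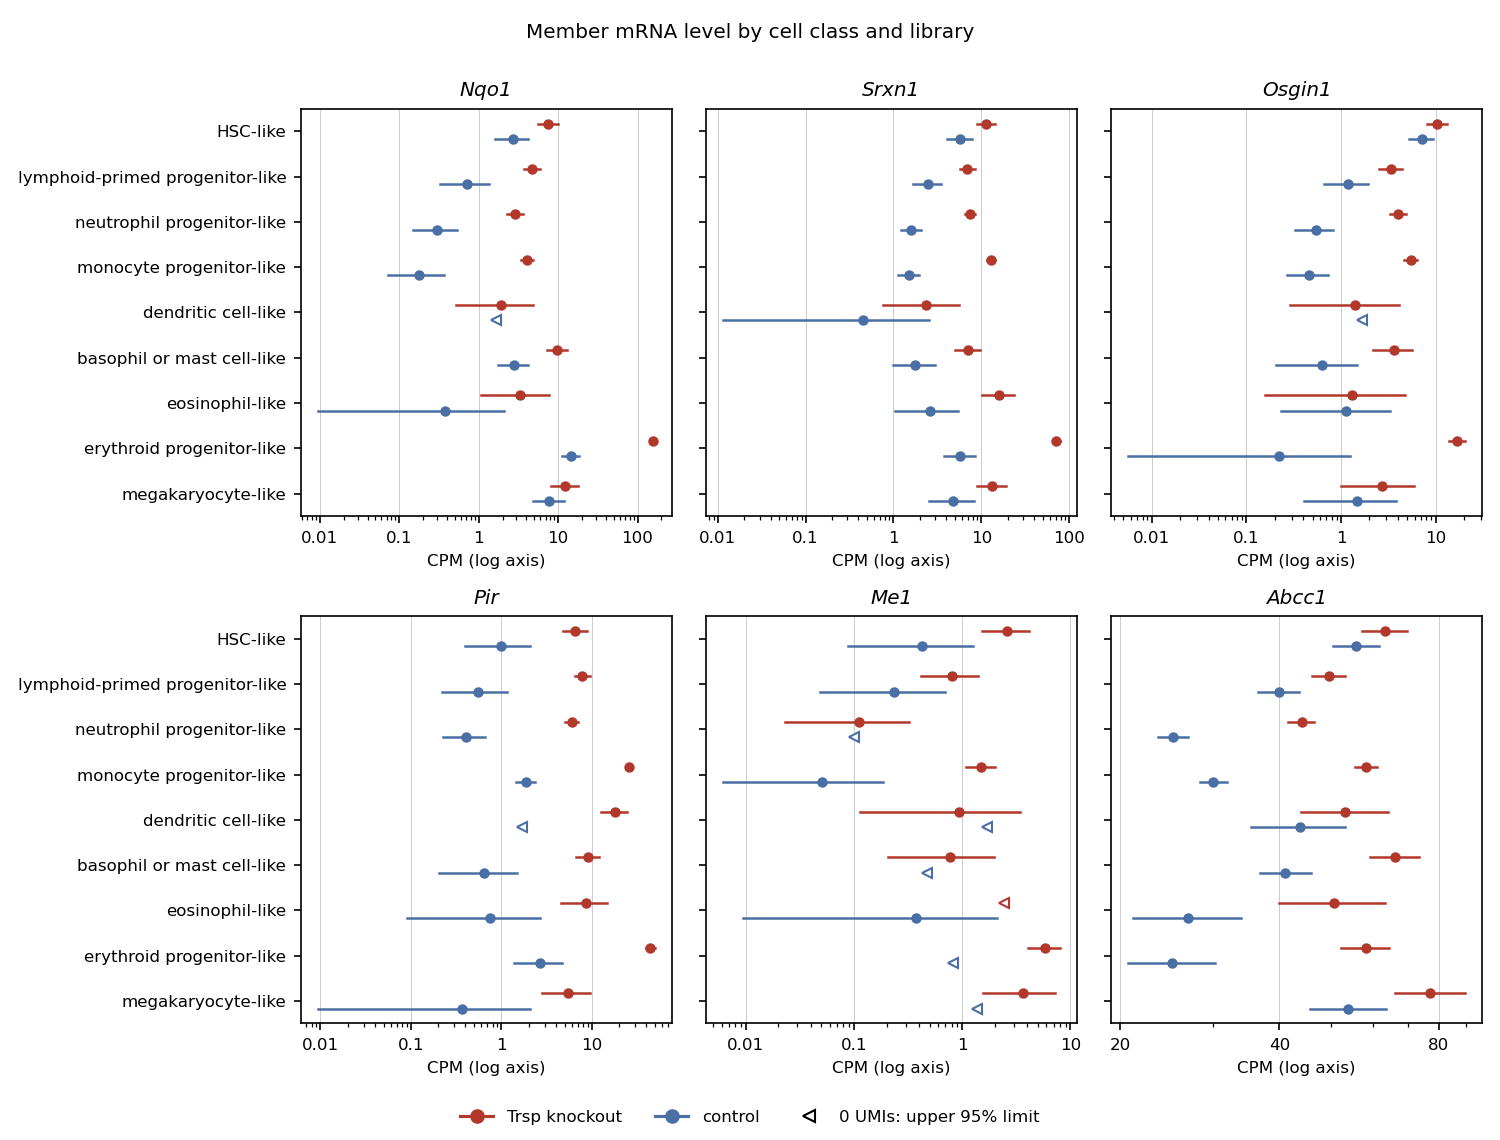
CPM of each member (log axis) in the 9 compared classes, Trsp knockout above control in each row, with points for summed UMIs, bars for exact 95% counting intervals and open triangles for the upper limit where a library had 0 UMIs. The knockout erythroid progenitor-like cells stand apart for Nqo1 (155 CPM) and Srxn1 (71.4 CPM), while Abcc1 lies between 44.1 and 77.2 CPM in the knockout classes.

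Within knockout erythroid progenitor-like cells, Nqo1, Srxn1 and Pir were higher in cells with more Car1, a carbonic anhydrase gene that comes up as erythroid progenitors mature. Cells were grouped after the data had been seen into those with no Car1 UMI (40 knockout and 42 control cells), up to 1000 CPM of Car1 (65 knockout and 58 control cells) and over 1000 CPM (94 knockout and 69 control cells), in that order below. Nqo1 stood at 34.2, 108 and 184 CPM in knockout cells and at 6.07, 16.5 and 15.6 CPM in control cells. The knockout intervals (21.5 to 51.8, 90.3 to 129 and 172 to 197) did not overlap, and the control intervals did. Srxn1 stood at 12.5, 50.3 and 85.1 CPM in knockout cells and at 0, 7.42 and 6.47 CPM in control cells. Pir stood at 12.5, 31.6 and 51.7 CPM in knockout cells and at 6.07, 1.65 and 2.28 CPM in control cells. The knockout Pir intervals of the lower bins overlapped (5.38 to 24.5 and 22.2 to 43.5). Abcc1 ran the other way in the control library, at 44.0, 32.1 and 17.1 CPM, and stood at 68.5, 61.4 and 55.9 CPM in knockout cells, where the intervals overlapped. In cells with over 1000 CPM of Car1, Osgin1 had 95 UMIs in knockout and 0 UMIs in control cells, at least 18.3-fold higher against a floor of 3 UMIs over those control cells, while the exact interval begins at a log2 ratio of 3.86. Median depths in that bin were 49142 UMIs in knockout and 37123 UMIs in control cells, against 16357 UMIs in knockout and 14479 UMIs in control cells without Car1, and the part of depth in these levels was not tested. When cells were classed by clustering instead, the erythroid cluster was smaller than the marker class, with 82 knockout and 70 control cells. How far the bins differ in cells of other types was not tested.

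**Figure D2:**
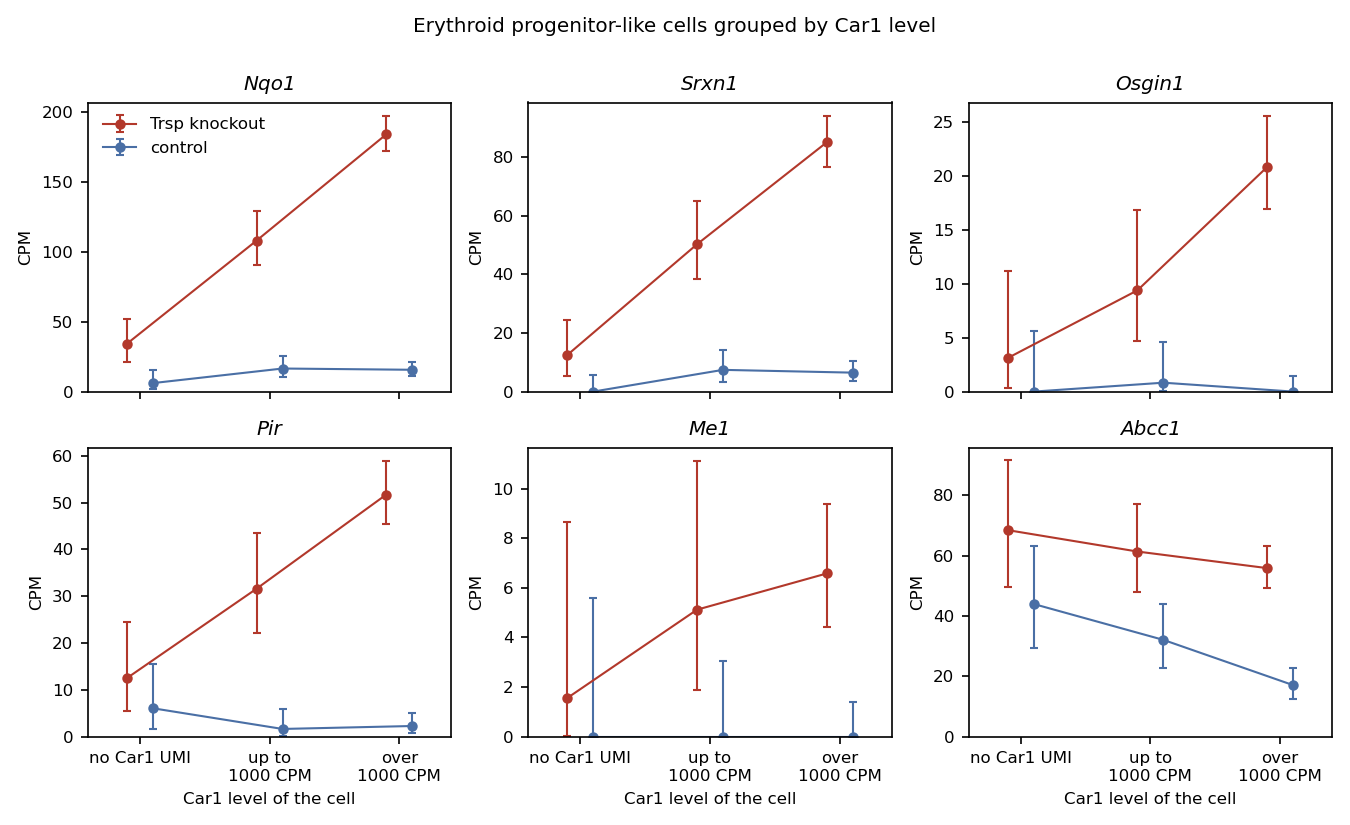
CPM of each member in erythroid progenitor-like cells grouped by their Car1 level, Trsp knockout left of control in each bin, with exact 95% counting intervals. Nqo1 climbs to 184 CPM across the bins in the knockout library and is at 15.6 CPM in the highest bin of the control library.

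Monocyte progenitor-like cells, led by F13a1, Ms4a6c, Ly86 and Ccr2, held the largest share of Pir. Pir had 765 UMIs (25.8 CPM) in 947 knockout and 73 UMIs (1.86 CPM) in 1526 control cells of the class, a log2 ratio of 3.79 (3.44 to 4.16). These cells held 39.4% of Pir UMIs and 21.5% of all UMIs in the kept knockout cells. In the kept control cells they held 48.0% of Pir UMIs and 23.6% of all UMIs. Nqo1 had 121 UMIs (4.07 CPM) in knockout and 7 UMIs (0.178 CPM) in control cells of the class, a log2 ratio of 4.51 (3.43 to 5.86). The Nqo1 level was far below that of erythroid progenitor-like cells, and the interval of its ratio overlapped theirs. Srxn1 had 386 UMIs (13 CPM) in knockout and 59 UMIs (1.5 CPM) in control cells of the class, a log2 ratio of 3.11. Osgin1 had 163 UMIs (5.49 CPM) in knockout and 18 UMIs (0.458 CPM) in control cells of the class, a log2 ratio of 3.58. Me1, with 44 UMIs in knockout and 2 UMIs in control cells, had a ratio of 29.1 (7.59 to 248), and Abcc1 had a log2 ratio of 0.96. The 5 members that reached 50 UMIs were called higher, beside 3.98% of 11446 measured genes. Klf1, an erythroid transcription factor gene, is set beside Nqo1 because free RNA from erythroid cells can enter droplets. In the knockout library Nqo1 and Klf1 had 121 and 12 UMIs in monocyte progenitor-like cells, and 988 and 1258 UMIs in erythroid progenitor-like cells. The part of free RNA in the Nqo1 counts of monocyte progenitor-like cells was not tested. The 7 macrophage markers summed to 5.62 CPM in knockout and 6.24 CPM in control monocyte progenitor-like cells, with 2 of the 7 at 0 in each and C1qc at 0 in both.

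Dendritic cell-like cells also held Pir. Pir had 38 UMIs (17.9 CPM) in 154 knockout and 0 UMIs in 176 control cells of the class, at least 13.1-fold higher against a floor of 3 UMIs over the control cells, while the exact interval begins at 10.2, and these counts are under the 50 UMIs needed for a call. Nqo1 had 4 UMIs in knockout and 0 in control cells and Srxn1 had 5 UMIs in knockout and 1 in control cells. Neutrophil progenitor-like cells, with 1049 knockout and 1621 control cells, had low levels of the members. Nqo1 stood at 2.88 CPM in knockout and 0.296 CPM in control cells of that class, Srxn1 at 7.42 CPM in knockout and 1.59 CPM in control cells, and Pir at 5.98 CPM in knockout and 0.404 CPM in control cells. Me1 had 3 UMIs in knockout and 0 UMIs in control neutrophil progenitor-like cells, so no fold is given. In basophil or mast cell-like cells Nqo1 stood at 9.75 CPM in knockout and 2.80 CPM in control cells, a log2 ratio of 1.80 (1.05 to 2.59), and Pir at 8.99 CPM in knockout and 0.637 CPM in control cells (3.82, 2.49 to 5.51). Eosinophil-like cells had 24 Srxn1 UMIs (15.8 CPM) in the knockout and 7 (2.62 CPM) in the control library. Megakaryocyte-like cells, the closest relatives of the erythroid cells among the classes, had 27 Nqo1 UMIs (12.3 CPM) in the knockout and 21 (7.76 CPM) in the control library, a log2 ratio of 0.66 (-0.22 to 1.56) that was not told apart from 0 at this depth. Srxn1 had 29 UMIs in knockout and 13 in control cells of the class (1.46, 0.47 to 2.52), and Pir had 12 and 1 (3.88, 1.13 to 9.30). Me1 had 8 UMIs in knockout and 0 in control cells, and Osgin1 had 6 and 4 (0.88, -1.19 to 3.15). Only Abcc1, at 0.52 (0.19 to 0.85), reached the 50 UMIs needed for a call there, and it was not called. This class differed in make-up between libraries: its own 6 markers summed to 1332 CPM in knockout and 3235 CPM in control cells, the 7 erythroid markers to 90.9 CPM in knockout and 216 CPM in control cells, and Car1 had 12 UMIs in knockout and 248 UMIs in control cells. The part of these in the members' ratios and in the control rank of the class was not tested.

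HSC-like cells, led by Hlf, Ctla2a and Mecom, had a smaller ratio than all kept cells for each member, and 3 of the ratios moved with how the class was drawn. Nqo1 had 49 UMIs (7.49 CPM) in 417 knockout and 19 UMIs (2.71 CPM) in 503 control cells of the class, a log2 ratio of 1.47 (0.68 to 2.31). Srxn1 had 74 UMIs (11.3 CPM) in knockout and 40 UMIs (5.70 CPM) in control cells of the class, a log2 ratio of 0.99 (0.41 to 1.58). Osgin1 had 68 UMIs (10.4 CPM) in knockout and 50 UMIs (7.12 CPM) in control cells of the class, and its log2 ratio of 0.54 had an interval that reached 0. Pir had 43 UMIs (6.57 CPM) in knockout and 7 UMIs (0.997 CPM) in control cells of the class, a log2 ratio of 2.72 (1.55 to 4.12). Abcc1 stood at 63.3 CPM in knockout and 55.9 CPM in control cells of the class, a log2 ratio of 0.18 (-0.02 to 0.38). Of the 5 members that reached 50 UMIs, 3 were called higher, beside 2.08% of 10357 measured genes. When cells were classed by clustering instead, HSC-like cells were 1 cluster of 221 knockout and 251 control cells, and in it the log2 ratio was -0.42 for Nqo1 (25 UMIs over both libraries), 0.05 for Srxn1 (50) and -0.38 for Osgin1 (65) but 2.93 for Pir (9). The cause was not tested. An Hlf-expressing cluster of 473 knockout and 688 control cells had too few markers for a name and was outside that class.

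Lymphoid-primed progenitor-like cells, led by Dntt and Flt3, had 71 Nqo1 UMIs (4.77 CPM) in the knockout and 9 (0.711 CPM) in the control library, a log2 ratio of 2.75 (1.74 to 3.93). Pir had 117 UMIs (7.85 CPM) in knockout and 7 UMIs (0.553 CPM) in control cells of the class (3.83, 2.74 to 5.17), and Srxn1 had 103 UMIs in knockout and 31 UMIs in control cells (1.5, 0.91 to 2.13). With classes from clustering, the log2 ratio in lymphoid-primed progenitor-like cells was 2.92 for Nqo1, 2.85 for Pir and 0.46 for Srxn1. Over the 9 classes and 6 members, 53 of 54 pairs had more CPM in the knockout library. The exception was Me1 in eosinophil-like cells, with 0 UMIs in knockout and 1 UMI in control cells. With classes from clustering the count was 49 of 54. Both counts are a description, since the contrast over all kept cells chose the members. The share of all measured genes with more CPM was not counted. Their median log2 ratio was positive in each class, from 0.02 in HSC-like to 0.16 in neutrophil progenitor-like cells. Of the 54 pairs with marker classes, 32 had enough UMIs for a call, with 27 called higher, 0 lower and 5 neither. No member was called lower over all kept cells, where 2.35% of measured genes were, or in any class. Lower calls took 1.35% of measured genes in HSC-like, 1.46% in lymphoid-primed and in neutrophil, 1.74% in monocyte, 2.03% in dendritic, 1.63% in basophil or mast, 1.86% in eosinophil, 4.74% in erythroid and 1.96% in megakaryocyte-like cells.

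The order of the classes differed between members and, for some, between libraries. For Nqo1 the knockout order was erythroid, megakaryocyte, basophil or mast, HSC, lymphoid-primed, monocyte, eosinophil, neutrophil and dendritic, and after the erythroid cells each neighbouring pair had overlapping intervals. In the control library erythroid (14.4 CPM) and megakaryocyte-like cells (7.76 CPM) also led with overlapping intervals, and the step down to basophil or mast cell-like cells (2.80 CPM) lay outside them. Osgin1 was led in the knockout library by erythroid (16.9 CPM), HSC (10.4 CPM) and monocyte progenitor-like cells (5.49 CPM), whose intervals did not overlap. In the control library Osgin1 was led by HSC-like cells at 7.12 CPM (5.29 to 9.39), and the next class, megakaryocyte-like cells, was at 1.48 CPM (0.403 to 3.79). HSC-like cells held 28.7% of control Osgin1 UMIs with 4.22% of all control UMIs, and the erythroid cells, first in the knockout library, had 1 of these UMIs in the control library. For Pir the knockout order was erythroid (44.1 CPM), monocyte (25.8 CPM) and dendritic (17.9 CPM), with overlap between the last of these and monocyte cells, and then the other classes between 5.45 and 8.99 CPM. Abcc1 had its highest knockout level in megakaryocyte-like cells (77.2 CPM) and its lowest in neutrophil progenitor-like cells (44.1 CPM). Control Abcc1 was highest in HSC-like (55.9 CPM) and megakaryocyte-like cells (54.0 CPM) and lowest in erythroid (25.1 CPM) and neutrophil progenitor-like cells (25.2 CPM), and both pairs overlapped in their intervals.

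Shares of cells with a UMI were compared after thinning each cell to 5000 UMIs, which left out 1127 knockout and 277 control cells. Nqo1 was found in 3.75% of 5513 knockout and 0.463% of 7769 control cells, and in 36.1% of 180 knockout and 5.66% of 159 control erythroid progenitor-like cells. Pir was found in 4.88% of knockout and 0.348% of control cells, and in 10.8% of 919 knockout and 0.791% of 1518 control monocyte progenitor-like cells. Without thinning the ratio of the Nqo1 shares was 4.50 rather than 8.10. No class is known to lack these genes, so Mpo stands beside these shares. Mpo was found in 61.5% of 143 knockout and 60.5% of 167 control dendritic cell-like cells, at median depths of 13784 UMIs in the knockout and 11830 UMIs in the control cells. It was found in 52.8% of knockout and 64.8% of control erythroid progenitor-like cells, at median depths of 29888 UMIs in the knockout and 22013 UMIs in the control cells, so a share is not read as the number of cells that expressed a member.

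Cells with UMIs of several members were more frequent in the knockout library. This is a description, since the members were chosen by their higher levels there. At least 2 of the 6 members were found in 275 of 5513 knockout cells (4.99%, 4.43 to 5.60) and 47 of 7769 control cells (0.605%, 0.445 to 0.804). The corresponding counts were 56 of 180 knockout (31.1%, 24.4 to 38.4) and 4 of 159 control (2.52%, 0.690 to 6.32) erythroid progenitor-like cells, and 58 of 919 knockout (6.31%) and 5 of 1518 control (0.329%) monocyte progenitor-like cells. Leaving out Abcc1, at least 2 of the other 5 were found in 97 knockout and 5 control cells. Without thinning, at unequal depth, 88 of 199 knockout and 1 of 169 control erythroid progenitor-like cells had UMIs of at least 4 members.

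**Figure D3:**
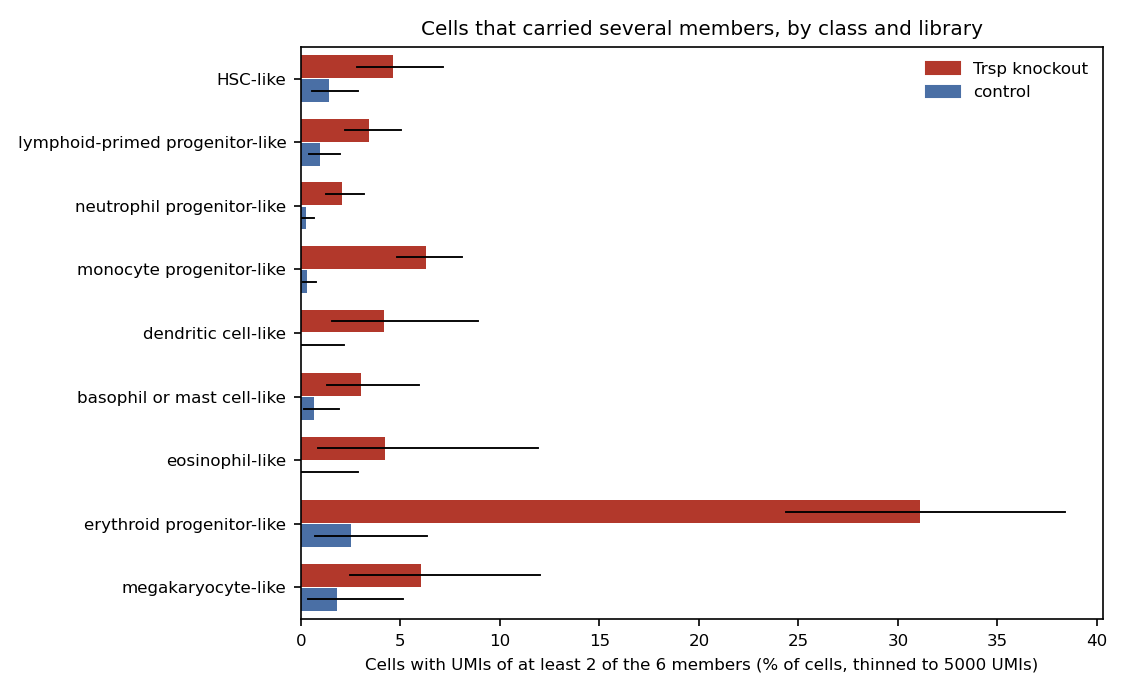
Share of cells with UMIs of at least 2 of the 6 members in each class after thinning to 5000 UMIs (% of cells), Trsp knockout above control, with bars for the share and black lines for exact Clopper-Pearson 95% intervals. The knockout erythroid progenitor-like cells stand at 31.1%, and the next of the compared knockout classes, monocyte progenitor-like cells, at 6.31%.

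Cells with both genes of a member pair were counted in the knockout library beside the number that the separate shares give. The ratios carry no counting interval, so an excess over 1 was not told apart from counting error. For each pair, the cells expected to carry both were summed over classes from the 2 shares within each class of a library. Of the 15 member pairs, 11 had at least 5 such cells expected in the knockout library. The observed number was above the expected in 9 of these, with a median ratio of 1.19 and a range from 0.860 (Pir with Abcc1) to 1.57 (Osgin1 with Pir). Nqo1 and Srxn1 were found together in 29 knockout cells, with 20.8 expected within classes and 10.2 expected when class was ignored. Nqo1 and Pir were found together in 22 knockout cells with 15.2 expected, and Nqo1 and Abcc1 in 44 with 50.6 expected. Within the 180 erythroid progenitor-like cells, Nqo1 and Srxn1 were found together in 22 with 14.4 expected, and the Car1 level that varied within the class was not held fixed. Outside the erythroid progenitor-like cells 7 cells had both, with 6.35 expected. Over the member pairs, the median ratio outside that class was 1.16, with a range from 0.643 to 1.95 and 8 pairs above 1.

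Pairs of a member with a gene of the paralog list, which includes Nqo2, Osgin2 and Me2, gave the level to set beside these. Of 42 such pairs 22 had at least 5 cells expected, and their median ratio was 0.967, with a range from 0.586 to 2.00. That range covers the range of the member pairs. Thinned to 10000 UMIs, the median was 1.31 over 13 member pairs and 0.994 over 27 pairs with a paralog-list gene. Without thinning both medians were higher, at 1.62 for member pairs and 1.25 for pairs with a paralog-list gene. In the control library only 3 member pairs reached 5 expected cells, all of them with Abcc1, with ratios between 1.15 and 1.18. The control median was 1.09 over 12 pairs with a paralog-list gene. At 10000 UMIs 4 control member pairs reached 5 expected cells, with a median ratio of 0.943 and 1 of the 4 above 1. The control median at that depth was 0.956 over 22 pairs with a paralog-list gene.

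**Figure D4:**
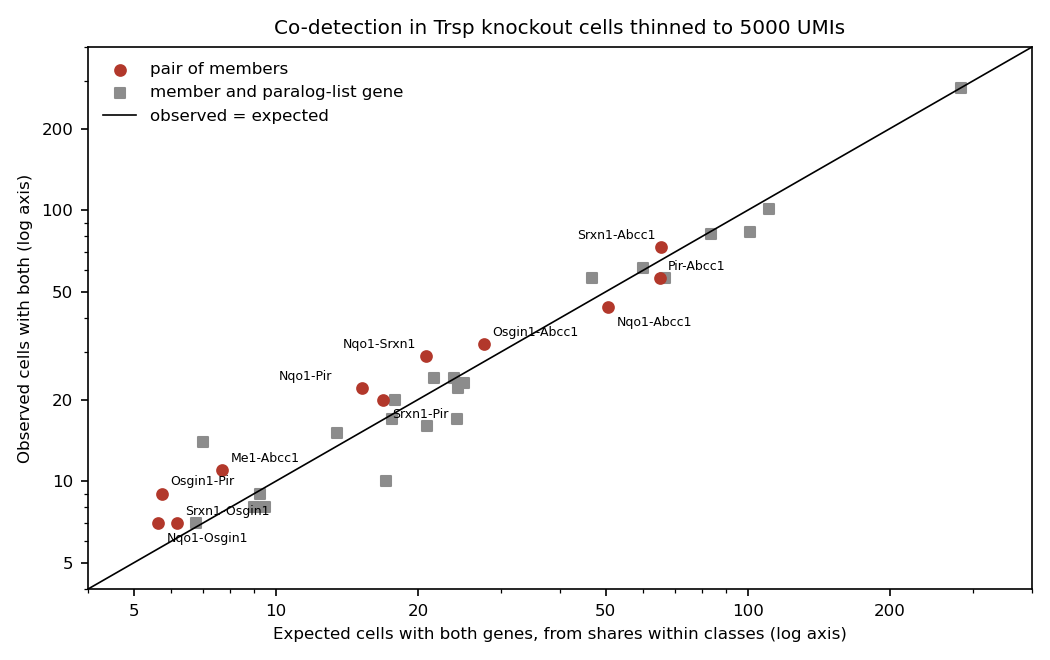
Knockout cells with UMIs of both genes of a pair (vertical log axis) against the number expected from the shares within classes (horizontal log axis), for pairs with at least 5 expected. The line marks equality, and member pairs (circles) have a median ratio of 1.19 against 0.967 for pairs with a paralog-list gene (squares).

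The members were also compared with the selenoprotein mRNAs of the same cells. The summed UMIs of Selenoh, Gpx1, Gpx4 and Selenow in cells thinned to 5000 UMIs were 5 or more in 7.24% of knockout and 93.1% of control cells, with bins chosen after the data had been seen. In knockout monocyte progenitor-like cells with 0 to 1, 2 to 4 and 5 or more of these UMIs, Pir stood at 25, 26.2 and 25.8 CPM, and its intervals overlapped. Control monocyte progenitor-like cells with 5 or more had 1.85 CPM of Pir. In knockout erythroid progenitor-like cells of the same bins Nqo1 stood at 119, 168 and 155 CPM, beside 14.1 CPM in control cells of the class with 5 or more. The Nqo1 interval of the highest bin (134 to 179) overlapped those of the other bins (101 to 140 in the lowest and 155 to 181 in the middle), which did not overlap each other. Over all 5513 knockout cells with at least 5000 UMIs, Nqo1 stood at 7.24, 14.2 and 22.0 CPM in the bins, with intervals that did not overlap, and Srxn1 at 10.9, 13.5 and 17.2 CPM. Pir stood at 11.8, 15.2 and 17.8 CPM. Osgin1 (4.66, 5.70 and 5.45 CPM) and Me1 (1.32, 1.15 and 1.88 CPM) had overlapping intervals. Abcc1 ran the other way, from 56.5 CPM (54.6 to 58.5) through 54.7 CPM to 47.5 CPM (43.4 to 51.8). The classes of cells in these bins were not held fixed there. The highest bin held 93 monocyte and 29 erythroid progenitor-like knockout cells, and the part of free RNA in their selenoprotein counts was not tested.

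Of 26 other listed NRF2 targets, 24 were measured over all kept cells, 10 were called higher and 0 lower, beside 5.18% higher and 2.35% lower of all measured genes. Their median log2 ratio was 0.54, beside 0.12 for all measured genes. Slc7a11, the cystine transporter subunit, was the highest at 19.2 CPM in knockout and 1.69 CPM in control cells, a log2 ratio of 3.51. Gsta3, a glutathione transferase, followed at 3.26, Hmox1, heme oxygenase, at 2.55, Gclm, the modifier subunit of glutathione synthesis, at 1.41, and Ftl1, the ferritin light chain, at 1.26. The lowest were Idh1, a cytosolic NADPH source, at -0.02, Tkt of the pentose phosphate pathway at 0.09 and Txnrd1, which itself encodes a selenoprotein, at 0.11. With a floor of 20 CPM in 1 library added, 5 of 19 were called higher. Aldh3a1 and Akr1b8 had 5 and 6 UMIs in knockout cells and 0 in control cells.

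The same list was then counted by class. Higher calls numbered 15 of 22 measured in erythroid progenitor-like cells, beside 4.07% of all measured genes. There the log2 ratio was 1.54 for Gclm and 1.70 for Gsr, glutathione reductase, and Slc7a11 had 312 UMIs in knockout and 1 in control cells. Higher calls numbered 12 of 22 in monocyte progenitor-like cells (3.98% of measured genes), with a log2 ratio of 3.23 for Hmox1. They numbered 10 of 22 in neutrophil progenitor-like cells, where 5.38% of measured genes were higher. Lymphoid-primed progenitor-like cells had 6 of 20 (2.88% of measured genes), basophil or mast cell-like cells 7 of 20 (3.32%) and eosinophil-like cells 6 of 20 (5.43%). Dendritic cell-like and megakaryocyte-like cells each had 5 of 19, beside 5.17% of measured genes in dendritic and 4.34% in megakaryocyte-like cells. HSC-like cells had the fewest, 2 of 19 (2.08% of measured genes), namely Ftl1 at 0.66 and Mafg at 0.61. With classes from clustering HSC-like cells had 0 of 19, and lymphoid-primed progenitor-like cells also had 0 of 19. Medians were 0.79 in erythroid, 0.63 in monocyte and 0.10 in HSC-like cells, beside 0.04, 0.09 and 0.02 for all measured genes of each class.

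**Figure D5:**
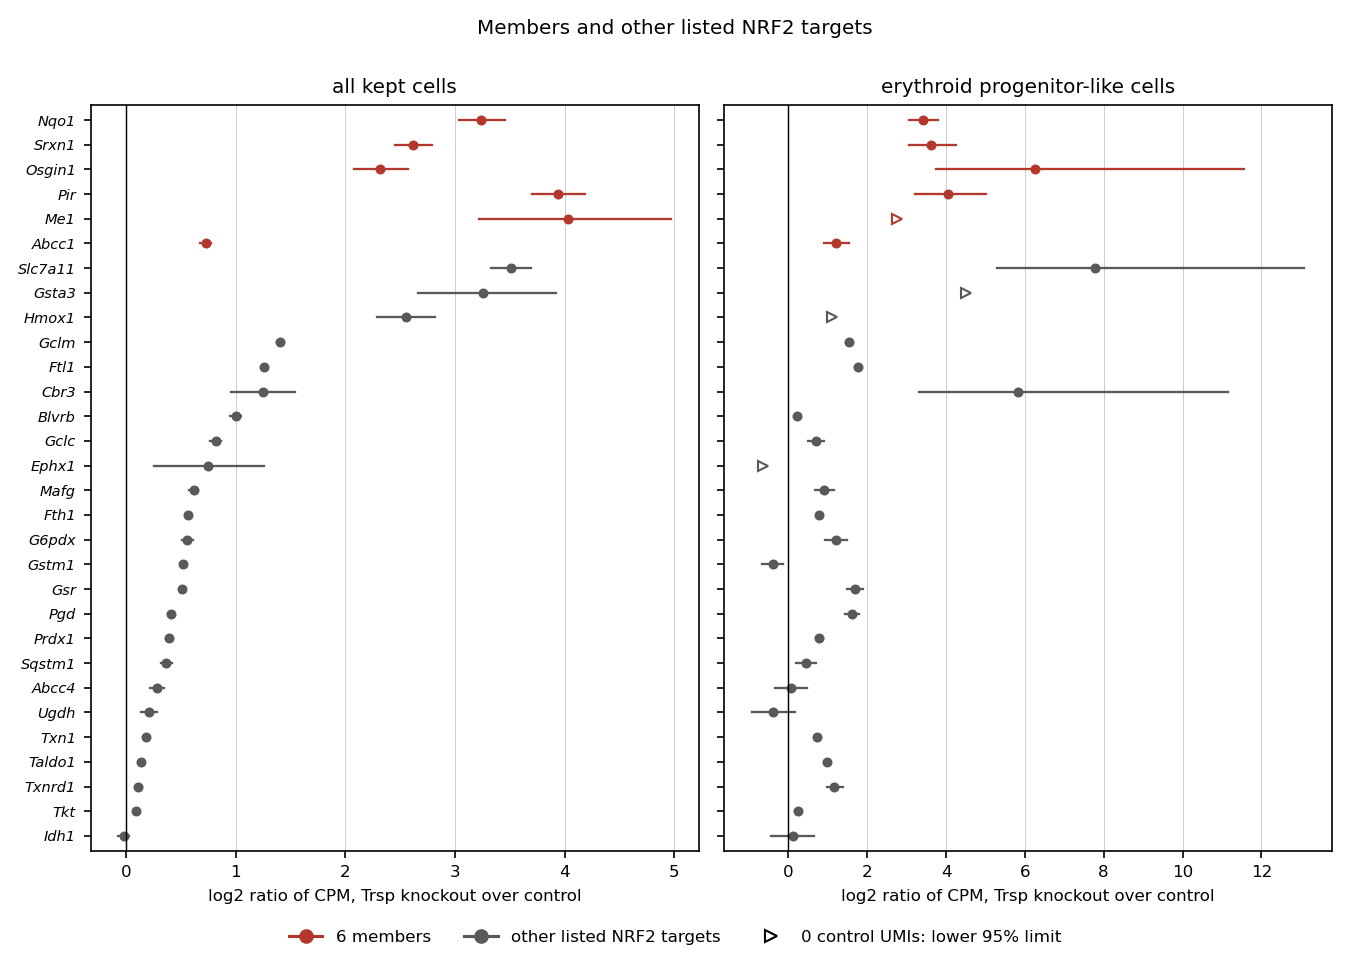
Log2 ratio of CPM, Trsp knockout over control, for the 6 members (red) and 24 measured genes of the other NRF2 target list (grey), over all kept cells on the left and in erythroid progenitor-like cells on the right, with exact 95% counting intervals and triangles for lower limits where the control had 0 UMIs. The members other than Abcc1 lie between 2.32 and 4.03 over all kept cells, beside 3.51 for Slc7a11 and -0.02 for Idh1.

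Over all kept cells the measured relatives and partners had smaller log2 ratios than the members, of which Abcc1 was the lowest at 0.73. That contrast chose the members, so this is a description, and it did not hold in every class. Of the 7 genes of the paralog list 6 were measured, and 0 were called over all kept cells, beside the 5.18% higher and 2.35% lower of all measured genes. In the compared classes, Abcc5 was the only one of them called, higher in neutrophil progenitor-like (0.71), monocyte progenitor-like (0.63), eosinophil (0.68) and megakaryocyte-like cells (0.73). In megakaryocyte-like cells the ratio of Abcc5 was above that of Abcc1 (0.52), which was not called. Over all kept cells the log2 ratio was 0.01 for Nqo2, 0.14 for Osgin2, -0.04 for Me2, 0.23 for Abcc2, 0.27 for Abcc3 and 0.55 for Abcc5, and Me3 had 3 UMIs in knockout and 1 in control cells. The mRNAs of 4 peroxiredoxins, the family on which sulfiredoxin acts, had log2 ratios of 0.39 for Prdx1, 0.04 for Prdx2, -0.07 for Prdx3 and -0.08 for Prdx4. In erythroid progenitor-like cells Prdx1 stood at 578 CPM in knockout and 335 CPM in control cells and was called higher at 0.79, while Prdx2, the abundant red cell peroxiredoxin, was at -0.27. Prdx4 was called lower in neutrophil progenitor-like (-0.61), basophil or mast (-1.23) and megakaryocyte-like cells (-0.64), and Prdx3 in dendritic cell-like cells (-0.71). Of 6 regulators and partners of NRF2, Mafg, which is also on the NRF2 target list, was called higher over all kept cells at 0.62. Nfe2l2 stood at 68.3 CPM in knockout and 61.4 CPM in control cells (0.15), Keap1 at 0.31, Bach1 at 0.38, Mafk at 0.08 and Maff at 0.45.

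Likeness of level patterns was taken as Pearson's r of log2(CPM + 1) over 18 points, the 9 classes in each of 2 libraries, which share their libraries and their depth. Each r also holds the difference between the libraries, by which the members were chosen, so r among members is a description only. Among members r was highest for Nqo1 with Srxn1 at 0.86 and lowest for Nqo1 with Abcc1 at 0.49. The summed level of the 6 was most like Map2k3 (0.94), Keap1 (0.88), Tbce (0.88), Snx5 (0.85), Nedd1 (0.84), Clptm1 (0.84), Cat (0.84) and Trmt10a (0.83). Abcc1 had the highest CPM of the 6 at every point but knockout erythroid progenitor-like cells, where Nqo1 was at 155 CPM and Abcc1 at 58.2 CPM. This sum is therefore not an even measure of the 6. Single members were most like Gclm (0.93), Ddx47 (0.91) and Tbce (0.90) for Nqo1 and Dhx15 (0.92), Keap1 (0.91) and Gclm (0.90) for Srxn1. For Osgin1 they were Srxn1 (0.80), Keap1 (0.79) and Cry2 (0.78), and for Pir they were Adrm1 (0.93), Pcbp2 (0.92) and Gm20658 (0.90). Me1 was most like Map2k3 (0.80), Gm10457 (0.80) and Osgin1 (0.77), and Abcc1 was most like Rit1 (0.87), Slc9a8 (0.87) and Gm26802 (0.86).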

How the data were processed

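The values are UMI counts, not normalized, as the authors deposited them. They come from 10x Chromium 3′ v3.1 chemistry per the labels, and the submitters' processing notes name Cell Ranger 6.1.2 and mm10. The sources used here name neither annotation release nor cell-calling settings. A UMI counts a captured molecule, and free RNA adds to it. Filters of 500 genes or more and less than 10% mitochondrial UMIs left 6706 knockout and 8192 control barcodes. Scrublet (scanpy 1.11.5, 10% doublets expected) set thresholds of 0.476 in the knockout and 0.433 in the control library. The control threshold was used for both, after the data had been seen, and removed 66 knockout and 146 control cells.

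Each cell was scaled to 10000 counts and log-transformed, and took the class with the highest mean marker z-score if this was at least 0.5, led the next class by 0.25 and rested on at least 2 detected markers. These limits were set after member levels by class had been seen under other limits, and macrophage and stromal markers served as checks only. UMIs were summed per class and library and divided by the library's class total (CPM). Sums have exact Poisson, shares exact Clopper-Pearson and ratios exact conditional binomial intervals at 95%. Against 0 UMIs a floor of 3 UMIs over the class was used. Genes needed 50 UMIs over both libraries. The interval and call code and the co-detection code were tested on simulated data. Alternative classes came from Leiden clusters (leidenalg 0.10.2, resolution 1, 15 neighbours, 30 components, 2000 variable genes). The members, lists, markers and rules were chosen with earlier results of these data known. Named genes were all members, the 5 highest and 3 lowest of the other NRF2 list, all paralogs, and the 8 most like the summed members and 3 most like each, and genes named within a class were picked after their values were seen. Counts of 2 libraries give no replicate error.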

Additional observations from a re-analysis of the deposited data

Results flagged for a closer look

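Signal of the members was present in barcodes that the filters left out, at a higher level in the knockout than in the control library. Among barcodes with under 500 genes, Srxn1 stood at 4.82 CPM in the knockout and 0.387 CPM in the control library, and Pir at 2.85 CPM in the knockout and 0 CPM in the control library. Among barcodes with at least 500 genes and 10% or more mitochondrial UMIs, Nqo1 stood at 4.97 CPM in the knockout and 1.02 CPM in the control library and Srxn1 at 11.1 CPM in the knockout and 2.05 CPM in the control library. In those barcodes Osgin1 stood at 5.42 CPM in the knockout and 1.14 CPM in the control library, Pir at 9.64 CPM in the knockout and 1.37 CPM in the control library, and Abcc1 at 85.0 CPM in the knockout and 55.7 CPM in the control library.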

How the results depend on the processing

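Each member kept a higher level in the knockout library over all kept cells under every alternative run, which were a stricter barcode filter, predicted doublets kept, median-of-ratios size factors, deeper cells only and a mean over cells. With the mean over cells of each cell's CPM, the log2 ratio was 2.64 for Nqo1, 2.23 for Srxn1, 1.69 for Osgin1 and 0.62 for Abcc1, and with size factors it was 0.61 for Abcc1. Leaving out erythroid progenitor-like cells, an alternative added after the data were seen, gave 2.48 for Nqo1 and 2.33 for Srxn1. Leaving out the cluster mostly of knockout cells, also added later, gave 3.26 for Nqo1 and 0.73 for Abcc1. The ratio of shares of cells with a UMI was 4.94 for Nqo1 when thinned to 10000 UMIs and, without thinning, 4.50 for Nqo1, 4.37 for Osgin1 (3.00 when thinned) and 1.22 for Abcc1 (1.47 when thinned). The median co-detection ratio was 1.48 with expectations that ignored class and, added later, 1.62 without thinning. With a floor of 20 CPM, 5 other NRF2 targets were called higher in place of 10, and of 98 recomputed counts of that list, over all cells and by class, 78 lay within 1.5 times the main count and 20 did not. Of 312 class values recomputed, 297 moved by less than their counting interval, 14 moved by more and 1 changed sign after having been called: Nqo1 in HSC-like cells, at -0.42 on the log2 scale with classes from clustering, over 25 UMIs. With clustering, Me1 in lymphoid-primed progenitor-like cells was also negative, at -1.08 over 3 UMIs, as were Osgin1 in HSC-like cells (-0.38) and, with the mean over cells, Osgin1 in eosinophil-like cells (-0.25). The cause was not tested. Counts per class limit the precision, since 22 of 54 member and class pairs had under 50 UMIs. No paired analysis was possible because each genotype had 1 library.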
